A study of Homo sapiens with 12 samples.

Results

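The comparison set HMEC-1 cells given a miR-126 mimic against HMEC-1 cells given a miR-150 mimic, with 3 libraries of each, which are 6 of the 12 libraries of the series. The libraries were chosen by their labels and paired by the replicate numbers 2, 3 and 4 that the labels give them. HMEC-1 cells are immortalised endothelial cells from small vessels of human skin, kept here in EBM-2 medium. In each group 50 nM of a double-stranded RNA was delivered with Lipofectamine RNAiMAX, and RNA was taken 48 h later. The miR-126 mimic and the miR-150 mimic groups differ in the RNA delivered, and 3 libraries of cells given scrambled RNA under the same conditions are used below as a description. The 3 remaining libraries, of a miR-143 mimic, were not compared here. They entered the filter, the normalizations and the fit, where they helped to estimate the spread and the replicate effects. All 12 libraries come from the same line and transfection reagent, and cells left untransfected were not analysed here. Whether the libraries of a group are separate cultures is not stated in the labels, and the p-values reflect only how far these libraries differ, which may be technical variation. The series concerns abnormal growth of retinal vessels, and the comparison asks which transcripts differ between cells given either microRNA.

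A microRNA is a small RNA that guides Argonaute proteins to transcripts, mostly through pairing of its seed near the 5′ end with the 3′ UTR, and lowers the level or translation of those transcripts. A mimic supplies a cell with additional copies of the mature strand. miR-126 is abundant in endothelial cells and is encoded in an intron of EGFL7, and its reported targets include SPRED1 and PIK3R2, which restrain VEGF signalling. miR-150 is abundant in mature lymphocytes, where MYB is a reported target in the mouse, and CXCR4, DLL4 and FZD4 are reported targets in mouse retinal vessels.

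The mature miR-126 sequences are shown because their seeds define the matches counted below. They come from RefSeq on GRCh38.p14, with bases 2 to 8, the seed, in capitals. The labels do not name the arm that the mimic carries.
hsa-miR-126-3p: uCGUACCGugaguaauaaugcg
hsa-miR-126-5p: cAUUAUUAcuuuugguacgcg
The 3p arm lies at chr9:136670653-136670674 and the 5p arm at chr9:136670616-136670636, both on the plus strand and inside EGFL7 (chr9:136658856-136672678). The mature sequence of miR-150 is named only.

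Values are TPM, transcript abundances scaled to the same total in every library, summed per gene symbol. Of the genes, 13750 reached 1 TPM in at least 3 of the 12 libraries and were tested with limma on log2(TPM + 1), with the replicate number as a block. Every fold change below is miR-126 mimic minus miR-150 mimic on that scale, which understates the change of low genes. P-values are two-sided, adjusted by Benjamini-Hochberg over all tested genes, and called under 0.05. Between 13117 and 13564 genes reached 1 TPM in the miR-126 libraries, and between 12299 and 13199 in the miR-150 libraries. The library of miR-150 mimic replicate 4 stood apart from its group. Ribosomal protein genes took 24.0% of its TPM, against 14.1% to 17.9% in the other 5 libraries. Mitochondrially encoded mRNAs took 1.35% of it, against 2.07% to 2.79%. Its deviation from the mean of all libraries ran with transcript length across genes (Spearman's rho -0.50), where the other 5 libraries gave 0.06 to 0.15. The counts over all genes, and counts or medians of several lists, are therefore also given without it. Fold changes of single genes and the other list counts include it unless stated. The library of miR-143 mimic replicate 4, which stayed in most fits, leaned the same way with transcript length (Spearman's rho -0.35).

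With the miR-126 mimic, 2178 genes were higher (15.8% of those tested) and 421 were lower (3.06%) than with the miR-150 mimic, together 2599 genes (18.9%). A change of at least 1 on the log2 scale was seen in 339 of the higher and 47 of the lower genes, with 123 and 118 after centring each library on its median gene, 133 and 115 after quantile normalization, 207 and 63 without miR-150 mimic replicate 4, and 548 and 68 with a pseudocount of 0.1. The median over all tested genes was 0.22, and it was 0.12, 0.11 and 0.41 in pairs 2, 3 and 4. The split of the calls depends on the scaling. After centring each library on its median gene 810 genes were higher (5.89%) and 1035 lower (7.53%), together 13.4%, and after quantile normalization 1062 were higher and 1006 lower. Without miR-150 mimic replicate 4, 1379 were higher and 442 lower (3.21%), together 13.2%. Of the calls, 683 higher and 299 lower genes were also called without that library, after centring and after the trend with transcript length was removed. Without the replicate block 427 genes were higher (3.11%) and 110 lower (0.8%), together 3.91%, and in a fit to the 6 libraries alone 68 were higher and 18 lower.

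**Figure D1:**
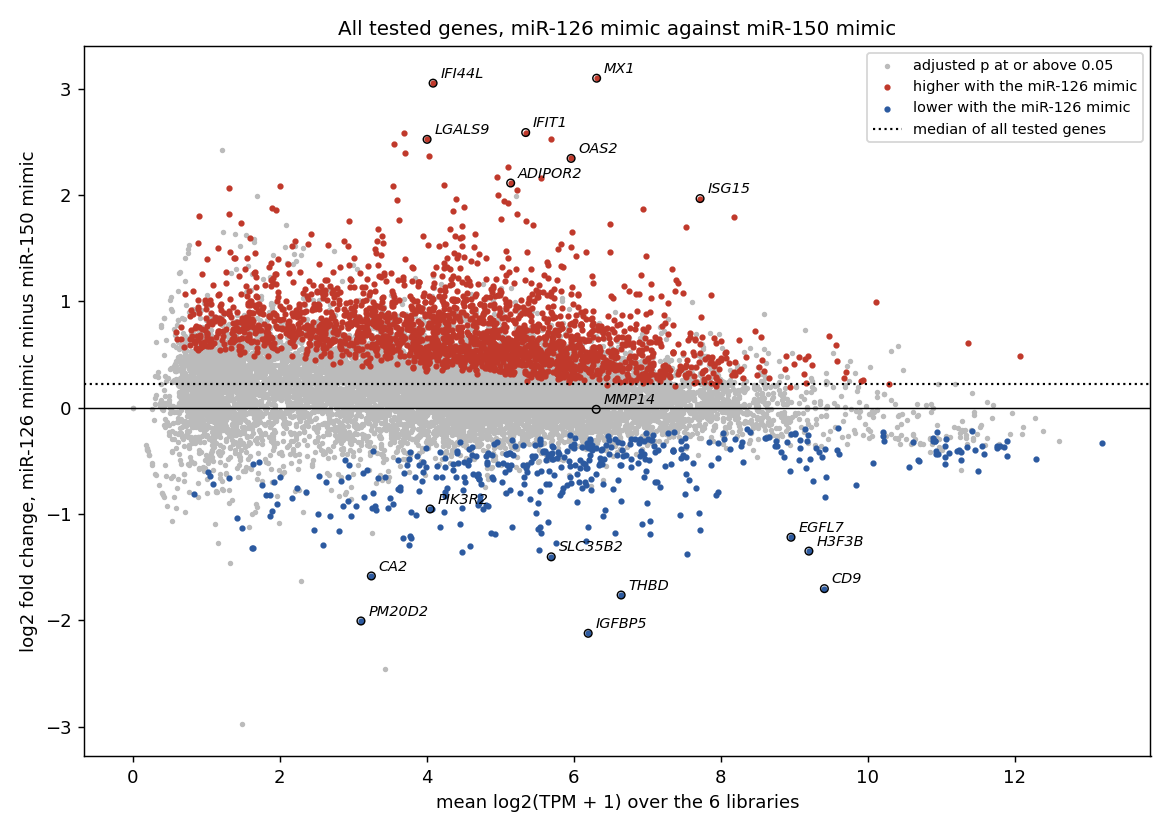
Mean level of each tested gene over the 6 libraries (x axis, log2(TPM + 1)) against its log2 fold change, miR-126 mimic minus miR-150 mimic (y axis), with called genes in colour and the dotted line at the median of 0.22. The 2178 genes called higher outnumber the 421 called lower, and interferon-stimulated genes such as MX1 and IFI44L lie at the top.

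Of the 12 genes named for the largest differences toward the miR-126 mimic, 10 were interferon-stimulated genes, which cells switch on after type I interferon binds its receptor. Of 36 such genes tested, 33 were higher with the miR-126 mimic and 0 were lower, against 15.8% and 3.06% of all genes. This list, like the others below, was chosen with earlier results of these data known, so the counts are a description. The median log2 fold change over the 36 genes was 1.82, against 0.22 over all genes, and it was 1.76, 1.68 and 1.78 in pairs 2, 3 and 4. MX1 (chr21:41420304-41459214), a GTPase that blocks influenza virus, had 155, 851 and 93.6 TPM with the miR-126 mimic, against 10.1, 219.9 and 7.14 TPM with the miR-150 mimic and 6.81, 142 and 6.82 TPM with scrambled RNA (log2 fold change 3.10, SE 0.31, limma adjusted p = 0.000395). Replicate 3 was the highest library for MX1 in every group, so the mimic groups overlapped although each pair differed the same way. IFIT1 (chr10:89392546-89406486), which binds RNA that lacks the cap methylation of host mRNA, had 62.7, 374 and 40.6 TPM with the miR-126 mimic, against 7.79, 82.6 and 5.22 TPM with the miR-150 mimic and 3.59, 41.0 and 3.20 TPM with scrambled RNA (log2 fold change 2.59, SE 0.15, limma adjusted p = 6.03e-05). BST2 (chr19:17402939-17405648), also called tetherin, which holds budding virus at the cell surface, had 17.5, 155 and 9.998 TPM with the miR-126 mimic, against 1.69, 18.1 and 1.89 TPM with the miR-150 mimic and 1.61, 19.6 and 1.14 TPM with scrambled RNA (log2 fold change 2.58, SE 0.26, limma adjusted p = 0.000447). The 3 genes showed the same order within each pair of libraries. IFI44L, of the same response, differed by 3.05 (limma adjusted p = 0.000395).

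OASL, MX2, IFIT2, OAS2, IFI44 and TRIM22, all of the antiviral response, differed by 2.48, 2.40, 2.37, 2.35, 2.53 and 2.17 on the log2 scale and were called. The other 2 of the 12 lie outside the list. LGALS9, a galectin that binds sugars on cell surfaces, had 25.9, 138 and 14.2 TPM with the miR-126 mimic, against 2.87, 18.9 and 2.91 TPM with the miR-150 mimic and 3.66, 14.1 and 3.84 TPM with scrambled RNA (log2 fold change 2.52, SE 0.26, limma adjusted p = 0.000447), again with replicate 3 highest in each mimic group. FAM3C2 is a copy of FAM3C on chromosome X, and reads of the copies cannot be told apart with certainty. EIF2AK2, XAF1 and ISG20 were the members that were not called, with differences of 0.92, 0.90 and 0.56.

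The level of the interferon-stimulated genes also varied between replicate numbers, with replicate 3 the highest in each group. The mean log2(TPM + 1) over the 36 genes was 5.46, 7.34 and 5.02 with the miR-126 mimic, 3.66, 5.61 and 3.21 with the miR-150 mimic, and 3.37, 5.31 and 3.25 with scrambled RNA. In 7 of the 36 genes all miR-126 libraries lay above all miR-150 libraries, against 25.9% of all genes whose groups did not overlap in either direction. Without the replicate block limma called 0 of the 36, with 15 higher at an unadjusted p under 0.05. Of the 36, 32 were called without miR-150 mimic replicate 4 and 29 after centring. In the fit to the 6 libraries alone 22 were called. Set against scrambled RNA, the median differences were 2.03 with the miR-126 mimic and 0.19 with the miR-150 mimic, a description of groups that share the scrambled RNA libraries.

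**Figure D2:**
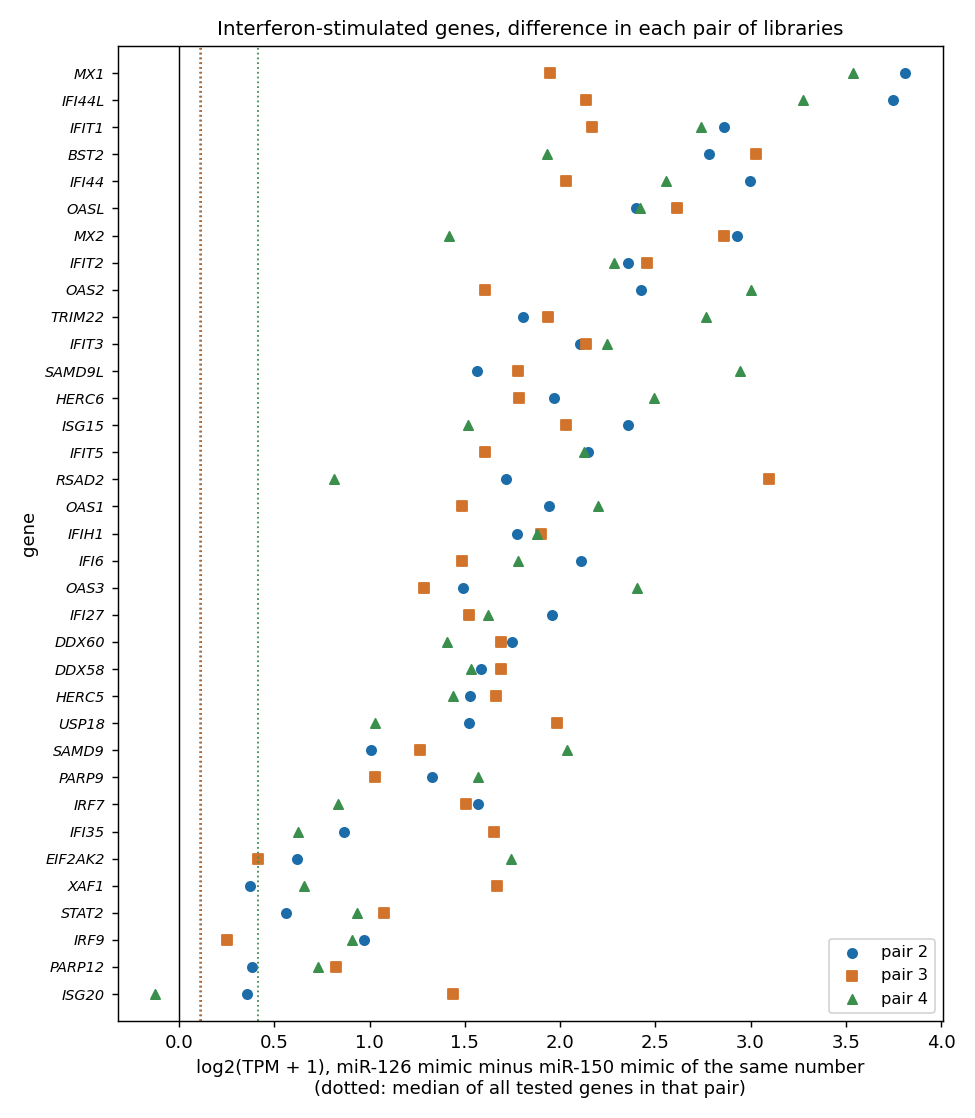
Difference on the log2(TPM + 1) scale, miR-126 mimic minus miR-150 mimic, of the interferon-stimulated genes named on the y axis (all of the 36 but 1) in the 3 same-numbered pairs of libraries, with dotted lines at the median of all genes in each pair. The medians of the 36 genes, 1.76, 1.68 and 1.78, lie above those of all genes, 0.12, 0.11 and 0.41.

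Promoters are shown for IFIT1 and BST2, whose levels moved with the list. The sequences run from 250 bases before to 50 after the gene start, from RefSeq on GRCh38.p14, with matches to GAAANNGAAA on either strand in capitals. That motif is the core of the interferon-stimulated response element.
IFIT1: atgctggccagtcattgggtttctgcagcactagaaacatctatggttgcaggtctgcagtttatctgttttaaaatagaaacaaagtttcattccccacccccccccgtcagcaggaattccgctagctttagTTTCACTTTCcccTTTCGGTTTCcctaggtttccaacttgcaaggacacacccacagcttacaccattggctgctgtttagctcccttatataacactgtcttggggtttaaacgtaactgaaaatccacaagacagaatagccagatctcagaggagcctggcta
BST2: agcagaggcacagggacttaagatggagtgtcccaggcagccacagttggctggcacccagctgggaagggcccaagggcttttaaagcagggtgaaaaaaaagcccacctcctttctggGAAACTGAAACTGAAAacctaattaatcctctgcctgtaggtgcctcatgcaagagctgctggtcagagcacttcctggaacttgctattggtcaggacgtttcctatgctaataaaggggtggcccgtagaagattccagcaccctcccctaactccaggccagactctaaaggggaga
The IFIT1 promoter is chr10:89392373-89392672 on the plus strand and the BST2 promoter chr19:17405581-17405880 on the minus strand. Each holds 2 matches, which overlap one another in BST2. A promoter was found for 27 of the 36 genes, and 18 of these (66.7%) held a match, against 294 of 9976 tested genes (2.95%) and 996 of 27305 promoters (3.65%). A match is a description and not a binding site.

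Genes of MHC class I antigen presentation, which load peptides for cytotoxic T cells, held 12 higher and 0 lower of 17 tested, against 15.8% and 3.06% of all genes, with a median of 0.60. The count was 13 without miR-150 mimic replicate 4, and after centring it was 4, against 5.89% of all genes, and without the replicate block it was 2. PSMB9, an immunoproteasome subunit, had 110.2, 204 and 101 TPM with the miR-126 mimic, against 53.8, 79.4 and 59.8 TPM with the miR-150 mimic and 59.4, 98.05 and 55.5 TPM with scrambled RNA (log2 fold change 1.04, SE 0.11, limma adjusted p = 0.000493). HLA-B, a class I heavy chain, had 1355, 2342 and 1193 TPM with the miR-126 mimic, against 679, 1008 and 700.5 TPM with the miR-150 mimic and 714, 1165 and 579 TPM with scrambled RNA (log2 fold change 0.99, SE 0.09, limma adjusted p = 0.00028). In both genes all 3 miR-126 libraries lay above the miR-150 libraries. HLA-F differed by 1.14 and NLRC5, an activator of class I genes, by 1.02. HLA genes are close copies of one another and reads can be split between them, and PSMB9 overlaps TAP1 and PSMB8.

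Of 13 genes of leukocyte adhesion and chemokines, 4 were higher and 1 was lower, against 15.8% and 3.06% of all genes, with a median of 0.44, and without the replicate block 0 were called. CCL5, a chemokine for T cells, had 7.88, 28.8 and 6.66 TPM with the miR-126 mimic, against 2.299, 7.10 and 1.92 TPM with the miR-150 mimic and 1.72, 7.19 and 1.68 TPM with scrambled RNA (log2 fold change 1.57, SE 0.14, limma adjusted p = 0.000233). ICAM1, which leukocytes grip through integrins, differed by 0.95 and TNFAIP3, an inhibitor of NF-kappa-B, by 1.14. TNFAIP3 was not called without miR-150 mimic replicate 4 (adjusted p = 0.0831). IL6, an inflammatory cytokine, went the other way, with 11.4, 29.1 and 8.63 TPM with the miR-126 mimic, against 37.0, 44.1 and 30.3 TPM with the miR-150 mimic and 15.3, 31.4 and 10.8 TPM with scrambled RNA (log2 fold change -1.30, SE 0.21, limma adjusted p = 0.00387). It was lower with the miR-126 mimic in every pair, and without the replicate block the adjusted p was 0.166.

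Among the genes lower with the miR-126 mimic, the largest difference was in IGFBP5 (chr2:216672105-216695525), a secreted protein that binds insulin-like growth factors. It had 37.8, 35.6 and 29.6 TPM with the miR-126 mimic, against 243, 151 and 95.6 TPM with the miR-150 mimic and 123, 145 and 113 TPM with scrambled RNA (log2 fold change -2.12, SE 0.20, limma adjusted p = 0.000299). The 3 miR-126 libraries lay below all the others. PM20D2, a peptidase, had 3.56, 3.90 and 2.54 TPM with the miR-126 mimic, against 19.1, 26.8 and 8.15 TPM with the miR-150 mimic and 15.7, 23.1 and 16.1 TPM with scrambled RNA (log2 fold change -2.01, SE 0.23, limma adjusted p = 0.000881), again with no overlap. THBD (chr20:23045633-23049741), thrombomodulin, which turns thrombin into an activator of anticoagulant protein C, had 45.1, 85.4 and 39.3 TPM with the miR-126 mimic, against 205, 224 and 134 TPM with the miR-150 mimic and 98.3, 123 and 101 TPM with scrambled RNA (log2 fold change -1.76, SE 0.16, limma adjusted p = 0.000263). Its miR-126 libraries were the lowest and its miR-150 libraries the highest of the 3 groups.

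CD9 (chr12:6199715-6238271), a tetraspanin of the plasma membrane, varied little within each group. It had 343, 448 and 346 TPM with the miR-126 mimic, against 1173, 1323 and 1187 TPM with the miR-150 mimic and 999, 1252 and 1062 TPM with scrambled RNA (log2 fold change -1.70, SE 0.063, limma adjusted p = 4.09e-06). The miR-150 and scrambled RNA libraries lay together, and the miR-126 libraries lay apart. SLC35B2, which carries the sulfate donor into the Golgi, showed the same arrangement, with 32.7, 27.5 and 32.7 TPM with the miR-126 mimic, against 86.8, 77.0 and 86.0 TPM with the miR-150 mimic and 83.8, 80.7 and 86.2 TPM with scrambled RNA (log2 fold change -1.40, SE 0.09, limma adjusted p = 6.03e-05). ADAM9 (chr8:38996869-39105144), a membrane metalloprotease and reported target of miR-126, had 123, 109.9 and 112 TPM with the miR-126 mimic, against 395, 339 and 203 TPM with the miR-150 mimic and 349.7, 305 and 381 TPM with scrambled RNA (log2 fold change -1.38, SE 0.19, limma adjusted p = 0.00195). H3F3B, which encodes histone H3.3, SLC39A6, a zinc transporter, and PTPRE, a tyrosine phosphatase, differed by -1.35, -1.36 and -1.34. RPL13AP7, a copy of RPL13A whose reads are uncertain, differed by -1.32 and was not called without miR-150 mimic replicate 4 (adjusted p = 0.0889).

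CA2, a carbonic anhydrase that interconverts carbon dioxide and bicarbonate, differed in another way. It had 3.72, 6.09 and 3.94 TPM with the miR-126 mimic, against 16.7, 14.4 and 15.3 TPM with the miR-150 mimic and 3.38, 4.08 and 2.50 TPM with scrambled RNA (log2 fold change -1.58, SE 0.19, limma adjusted p = 0.000939). The miR-126 libraries lay near the scrambled RNA libraries and the miR-150 libraries lay above both. KLF2, a transcription factor induced by shear stress and chosen after its values were seen, had 48.1, 36.0 and 54.3 TPM with the miR-126 mimic, against 119.9, 90.3 and 122 TPM with the miR-150 mimic and 82.1, 57.8 and 68.7 TPM with scrambled RNA (log2 fold change -1.25, SE 0.12, limma adjusted p = 0.000395), with scrambled RNA between the mimics.

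**Figure D3:**
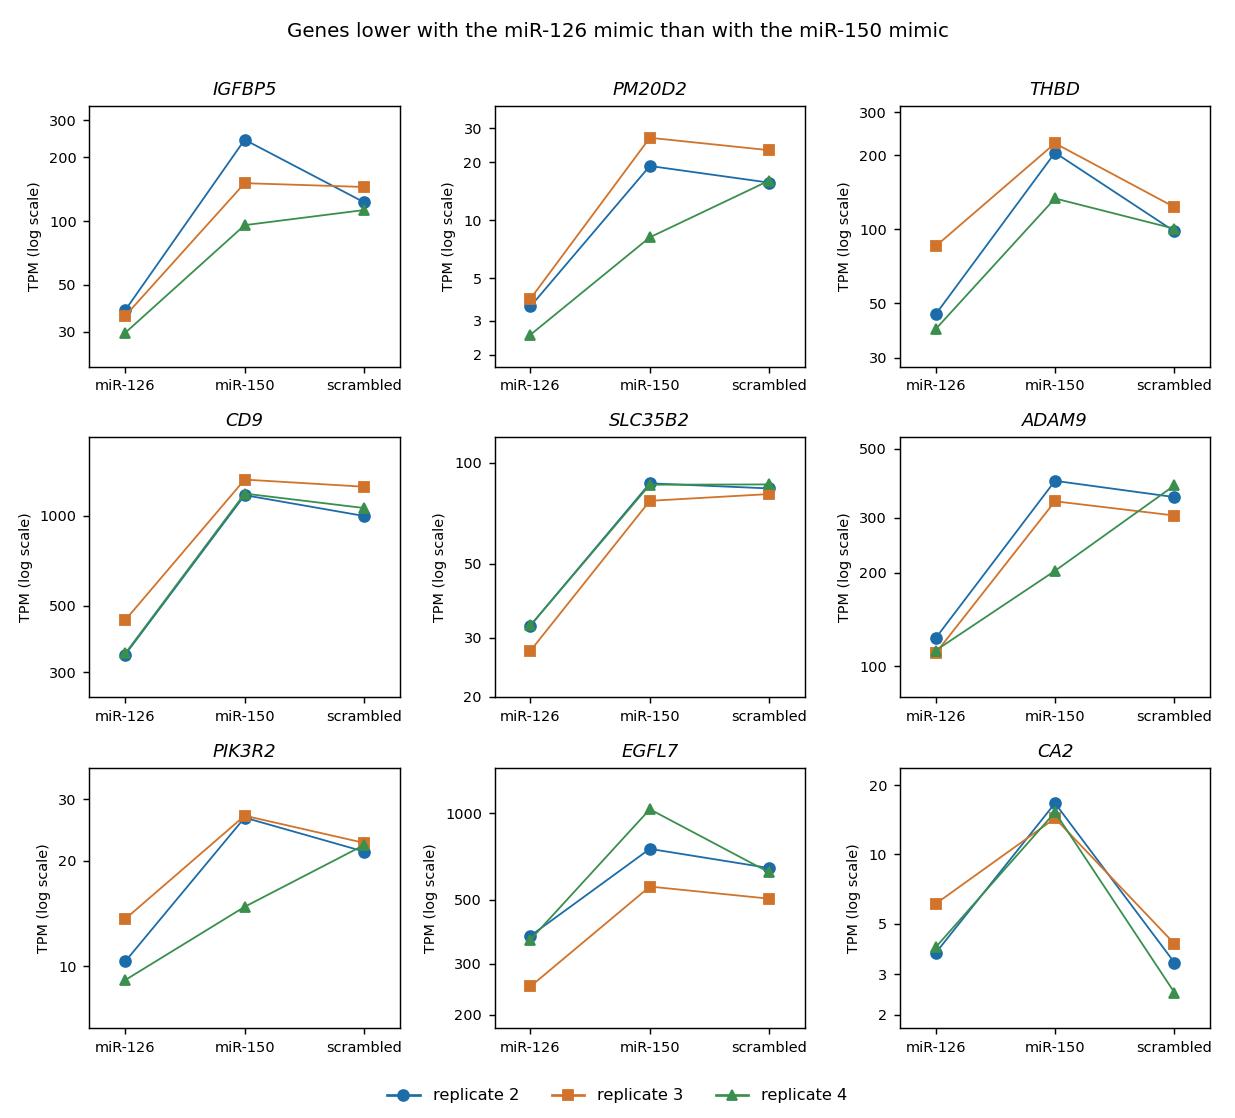
TPM on a log axis in the 3 libraries each of the miR-126 mimic, the miR-150 mimic and scrambled RNA, for 9 genes lower with the miR-126 mimic, with lines joining libraries of the same replicate number. IGFBP5, CD9 and SLC35B2 are low with the miR-126 mimic alone, and CA2 is high with the miR-150 mimic alone.

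Of 22 tested genes reported as miR-126 targets, 6 were lower and 2 were higher with the miR-126 mimic, against 3.06% and 15.8% of all genes. Their median was -0.10, against 0.22 over all genes. The counts without miR-150 mimic replicate 4 were 8 lower and 2 higher (median -0.30, against 0.12 over all genes). After centring 11 were lower and 1 higher (median -0.36), after quantile normalization 10 were lower and 2 higher, and without the replicate block 4 were lower and 0 higher. EGFL7, a secreted vessel protein and the host gene of miR-126, had 375, 250.3 and 364 TPM with the miR-126 mimic, against 752, 557 and 1033 TPM with the miR-150 mimic and 645, 505 and 623 TPM with scrambled RNA (log2 fold change -1.22, SE 0.15, limma adjusted p = 0.0011), with no overlap between the mimics. PIK3R2, a regulatory subunit of PI3-kinase, had 10.3, 13.6 and 9.12 TPM with the miR-126 mimic, against 26.6, 26.9 and 14.8 TPM with the miR-150 mimic and 21.2, 22.5 and 22.2 TPM with scrambled RNA (log2 fold change -0.95, SE 0.18, limma adjusted p = 0.00831). Its miR-126 libraries lay below all the others, and without the replicate block the adjusted p was 0.0624. GOLPH3, a Golgi protein, differed by -0.72 (adjusted p = 0.00229). SLC7A5, an amino acid transporter, differed by -1.18 (adjusted p = 0.00149). The difference in SPRED1, an inhibitor of RAS signalling, was -0.012 with a 95% interval of -0.71 to 0.69 (adjusted p = 0.979), and in CRK, an adaptor protein, it was -0.28 with an interval of -0.58 to 0.011 (adjusted p = 0.149). VCAM1, a leukocyte adhesion molecule, had 0.172, 0.227 and 0.381 TPM with the miR-126 mimic and 0.218, 0.303 and 0.282 TPM with the miR-150 mimic, too low to be tested.

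The 3′ UTRs of 4 genes lower with the miR-126 mimic held CGGTACG, the complement of bases 2 to 8 of miR-126-3p. The matches of 3 of them are shown in capitals on the transcript strand, with up to 11 bases on each side, from GENCODE release 29 on GRCh38.
PMM1: tgctcaagtatCGGTACGagatctagcct
PIK3R2: caggttttgtaCGGTACGttgttattgat
KANK2: ctttctgatcaCGGTACGtccataaagcc
The matched bases lie at chr22:41577002-41577008 (PMM1, minus strand), chr19:18170493-18170499 (PIK3R2, plus strand) and chr19:11164367-11164373 (KANK2, minus strand).

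PMM1, a phosphomannomutase, had 8.42, 7.20 and 7.52 TPM with the miR-126 mimic, against 21.3, 14.8 and 26.2 TPM with the miR-150 mimic and 20.2, 16.5 and 19.3 TPM with scrambled RNA (log2 fold change -1.29, SE 0.14, limma adjusted p = 0.000587). Its miR-126 libraries were the lowest 3 of the 9. KANK2, a protein of focal adhesions, differed by -0.56 (adjusted p = 0.04) and was called in 1 of the 6 fits that left out a library, the fit without miR-150 mimic replicate 4 (adjusted p = 0.00493).

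Over all genes, only the transcript strand was searched, in the longest 3′ UTR of each of 12494 genes. CGGTACG was found in 37 genes (0.296%), among them 4 of the 408 genes lower with the miR-126 mimic (0.980%) and 4 of the 2115 higher (0.189%). The median log2 fold change of the 37 genes was 0.18, against 0.22 in the other genes, and without miR-150 mimic replicate 4 it was 0.037, against 0.12. In single pairs their median minus that of the other genes was -0.19, -0.14 and -0.02 in pairs 2, 3 and 4. GGTACG, the complement of bases 2 to 7 and contained in the longer match, was searched after the values had been seen. It was found in 496 genes (3.97%), among them 34 of the 408 lower (8.33%) and 53 of the 2115 higher (2.51%). Without miR-150 mimic replicate 4 it was in 50 of 434 lower genes (11.5%) and 32 of 1343 higher genes (2.38%). TAATAAT, the complement of bases 2 to 8 of miR-126-5p, was found in 2484 genes (19.9%), in 68 of the lower (16.7%) and in 435 of the higher (20.6%). The order of these shares turned without miR-150 mimic replicate 4, with 103 of 434 lower genes (23.7%) and 240 of 1343 higher genes (17.9%).

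In other genes higher with the miR-126 mimic, the miR-150 libraries lay under those of scrambled RNA. ADIPOR2 (chr12:1688574-1788678), an adiponectin receptor and reported target of miR-150, had 74.3, 70.2 and 73.0 TPM with the miR-126 mimic, against 16.5, 22.5 and 10.9 TPM with the miR-150 mimic and 74.5, 81.0 and 81.3 TPM with scrambled RNA (log2 fold change 2.11, SE 0.18, limma adjusted p = 0.000198). The miR-126 and scrambled RNA libraries lay together, and all 3 miR-150 libraries lay below them. SMARCD2, a subunit of SWI/SNF chromatin remodelling complexes, and KCTD20 were chosen after their values were seen and showed the same arrangement. SMARCD2 had 63.3, 67.8 and 68.3 TPM with the miR-126 mimic, against 17.4, 23.1 and 11.6 TPM with the miR-150 mimic and 70.3, 72.7 and 63.4 TPM with scrambled RNA (log2 fold change 1.93, SE 0.16, limma adjusted p = 0.000169). KCTD20 had 61.6, 63.8 and 59.6 TPM with the miR-126 mimic, against 17.6, 22.9 and 7.63 TPM with the miR-150 mimic and 58.2, 66.1 and 68.6 TPM with scrambled RNA (log2 fold change 2.00, SE 0.26, limma adjusted p = 0.00168). Other genes of this direction lay on both sides of scrambled RNA, and they too were chosen after their values were seen. FAM3C, a secreted protein, had 84.7, 63.5 and 78.9 TPM with the miR-126 mimic, against 18.1, 21.9 and 13.2 TPM with the miR-150 mimic and 43.8, 44.4 and 42.5 TPM with scrambled RNA (log2 fold change 2.05, SE 0.17, limma adjusted p = 0.000194), and its copy FAM3C2 makes the value uncertain. RCAN1, an inhibitor of calcineurin, had 39.6, 42.0 and 40.1 TPM with the miR-126 mimic, against 8.75, 13.3 and 7.67 TPM with the miR-150 mimic and 15.8, 20.4 and 14.0 TPM with scrambled RNA (log2 fold change 1.96, SE 0.13, limma adjusted p = 6.03e-05).

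**Figure D4:**
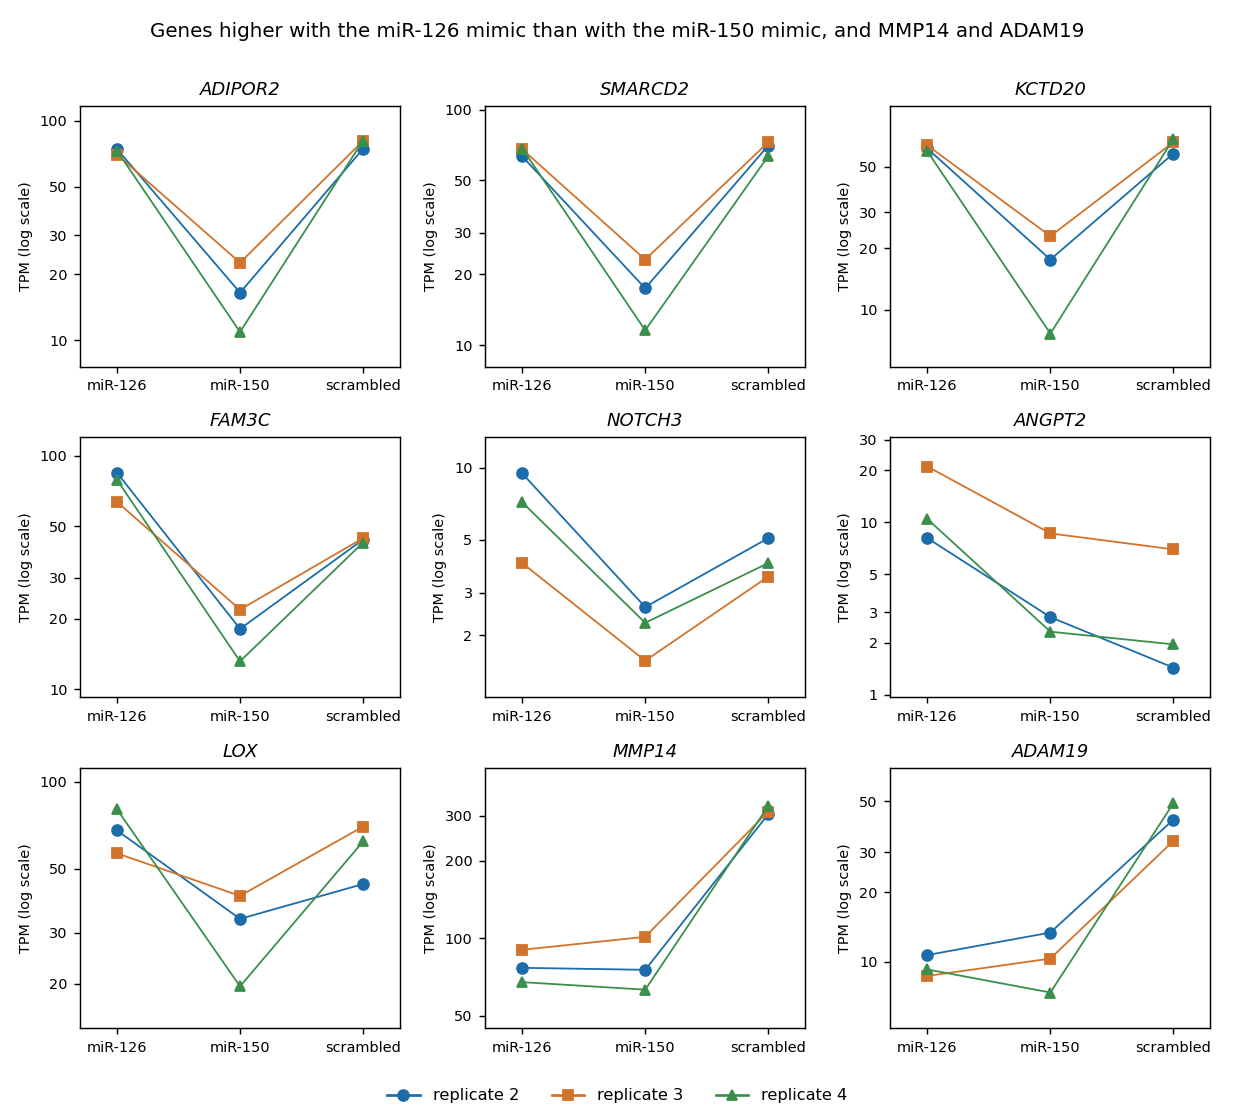
TPM on a log axis in the 3 libraries each of the miR-126 mimic, the miR-150 mimic and scrambled RNA, for 7 genes higher with the miR-126 mimic and for MMP14 and ADAM19, with lines joining libraries of the same replicate number. ADIPOR2, SMARCD2 and KCTD20 are low with the miR-150 mimic alone, and MMP14 and ADAM19 are low with both mimics.

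Of 21 tested genes reported as miR-150 targets, 6 were higher and 0 lower with the miR-126 mimic, against 15.8% and 3.06% of all genes, with a median of 0.52. Without miR-150 mimic replicate 4 the counts were 4 higher and 1 lower with a median of 0.29, after centring 3 higher and 1 lower, and without the replicate block 2 higher and 0 lower. NOTCH3, a receptor best known in mural cells, had 9.47, 3.9995 and 7.17 TPM with the miR-126 mimic, against 2.62, 1.57 and 2.25 TPM with the miR-150 mimic and 5.08, 3.51 and 3.999 TPM with scrambled RNA (log2 fold change 1.27, SE 0.20, limma adjusted p = 0.00339). DLL4, the NOTCH ligand of tip cells, had 13.7, 8.51 and 14.4 TPM with the miR-126 mimic, against 0.677, 5.18 and 7.77 TPM with the miR-150 mimic and 5.18, 5.20 and 4.98 TPM with scrambled RNA (log2 fold change 1.52, SE 0.46, limma adjusted p = 0.0479). Its 3 miR-150 libraries lay below the miR-126 libraries but spread widely, and the call was lost after centring (adjusted p = 0.118) and without the replicate block (adjusted p = 0.0978).

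The other genes fixed for miR-150 were not called or not tested. The difference in CXCR4, the receptor of the chemokine CXCL12, was 0.21 with a 95% interval of -0.18 to 0.61, and it turned to -0.052 after centring. In FZD4, the Norrin receptor, it was 0.18 with an interval of -0.23 to 0.60 and turned to -0.083 after centring. In ZEB1, a transcription factor of mesenchymal cells, it was 0.71 with an interval of -0.075 to 1.497. MYB and EGR2 lay under the filter.

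MMP14 and ADAM19, both reported as miR-150 targets, did not differ detectably between the mimics. MMP14, a membrane metalloprotease that cleaves collagen, had 76.8, 90.3 and 67.6 TPM with the miR-126 mimic, against 75.5, 101 and 63.2 TPM with the miR-150 mimic and 304, 311 and 327 TPM with scrambled RNA. The difference between the mimics was -0.015 with an interval of -0.28 to 0.25 (limma adjusted p = 0.936), and both mimic groups lay below every scrambled RNA library. ADAM19, another membrane metalloprotease, had 10.7, 8.66 and 9.24 TPM with the miR-126 mimic, against 13.4, 10.3 and 7.34 TPM with the miR-150 mimic and 41.5, 33.5 and 48.9 TPM with scrambled RNA. Its difference was -0.077 with an interval of -0.49 to 0.33 (limma adjusted p = 0.775). COLGALT1, which adds galactose to collagen, was also under scrambled RNA with both mimics but lower with miR-126, with 45.8, 47.1 and 49.5 TPM with the miR-126 mimic, against 94.7, 92.9 and 78.7 TPM with the miR-150 mimic and 190.04, 176 and 207 TPM with scrambled RNA (log2 fold change -0.88, SE 0.10, limma adjusted p = 0.000688).

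Genes of vessel growth and of endothelial signalling moved in both directions. Of 20 VEGF and angiopoietin genes 6 were higher and 2 lower (median 0.30), against 15.8% and 3.06% of all genes, with 2 higher and 2 lower after centring and 0 higher and 1 lower without the replicate block. ANGPT2, an antagonist of the TIE2 receptor, had 8.08, 21.0 and 10.4 TPM with the miR-126 mimic, against 2.82, 8.604 and 2.32 TPM with the miR-150 mimic and 1.44, 6.95 and 1.96 TPM with scrambled RNA (log2 fold change 1.41, SE 0.19, limma adjusted p = 0.00168). Replicate 3 was again the highest library in each group, and without the replicate block the adjusted p was 0.158. The 2 lower genes were EGFL7 and PIK3R2. NRP1, a VEGF co-receptor, differed by 0.78 and was not called after centring (adjusted p = 0.0638) or without miR-150 mimic replicate 4 (adjusted p = 0.144). Of 18 NOTCH genes 3 were higher and 0 lower (median 0.33), namely DLL4, NOTCH3 and NOTCH4, an endothelial receptor whose gene overlaps GPSM3 and that differed by 1.02. This share higher was near the 15.8% of all genes. After centring 2 were higher and 1 lower, and without the replicate block 1 was higher. Of 18 WNT and Norrin genes 3 were higher, near the 15.8% of all genes, and 3 lower, against 3.06% (median 0.20), and without the replicate block limma called 0. CTNNB1, which encodes beta-catenin, had 200.001, 158 and 196 TPM with the miR-126 mimic, against 399, 252 and 344 TPM with the miR-150 mimic and 365, 271 and 407 TPM with scrambled RNA (log2 fold change -0.82, SE 0.089, limma adjusted p = 0.000601). FZD6, a WNT receptor, and TCF7L1, a transcription factor of the pathway, differed by 0.87 and 0.82.

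The endothelial label was checked against 24 genes of endothelial identity, all of which reached 1 TPM in all 6 libraries. Their summed level was 2291 to 3316 TPM with the miR-126 mimic and 2588 to 3764 TPM with the miR-150 mimic. Of these, 2 were higher and 3 lower (median 0.02), against 15.8% and 3.06% of all genes. After centring the counts were 1 higher and 7 lower, and without the replicate block 0 higher and 2 lower. NOS3, endothelial nitric oxide synthase, had 20.1, 19.8 and 16.9 TPM with the miR-126 mimic, against 35.1, 33.3 and 34.6 TPM with the miR-150 mimic and 30.8, 28.96 and 29.05 TPM with scrambled RNA (log2 fold change -0.83, SE 0.11, limma adjusted p = 0.0017). EMCN, a sialomucin, differed by 0.79 and SOX17, an arterial transcription factor, by -0.59. SOX17 was not called without miR-150 mimic replicate 4 (adjusted p = 0.0595).

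Enzymes that modify collagen held 7 higher and 1 lower of 19 genes, against 15.8% and 3.06% of all genes, with a median of 0.28. Without miR-150 mimic replicate 4 the counts were the same, after centring they were 4 and 1, and without the replicate block 5 and 1. LOX, which cross-links collagen and elastin, had 67.8, 56.5 and 80.2 TPM with the miR-126 mimic, against 33.6, 40.3 and 19.6 TPM with the miR-150 mimic and 44.3, 70.0 and 62.1 TPM with scrambled RNA (log2 fold change 1.15, SE 0.26, limma adjusted p = 0.0174). P3H2, a prolyl hydroxylase, had 50.3, 52.0 and 50.9 TPM with the miR-126 mimic, against 27.0, 24.7 and 13.8 TPM with the miR-150 mimic and 29.2, 34.9 and 39.6 TPM with scrambled RNA (log2 fold change 1.25, SE 0.23, limma adjusted p = 0.00788). PLOD1, a lysyl hydroxylase, had 153, 147 and 151 TPM with the miR-126 mimic, against 82.7, 96.3 and 82.2 TPM with the miR-150 mimic and 180.4, 179.6 and 187 TPM with scrambled RNA (log2 fold change 0.78, SE 0.08, limma adjusted p = 0.000451). In the 3 genes every miR-126 library lay above every miR-150 library.

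Of 36 extracellular matrix and protease genes 3 were higher and 4 lower (median 0.11), against 15.8% and 3.06% of all genes. After centring 1 was higher and 9 lower, against 5.89% and 7.53% of all genes, and without miR-150 mimic replicate 4 the counts were 2 higher and 6 lower. ADAMTS1, a secreted protease, differed by -0.96 and SPARC, a collagen-binding protein, by 0.61. SPARC was not called after centring (adjusted p = 0.0578). Of 28 integrin and focal adhesion genes 5 were higher and 2 lower (median 0.18), the share higher near that of all genes, which turned to 2 higher and 7 lower after centring and 2 higher and 6 lower without miR-150 mimic replicate 4. ILK, integrin-linked kinase, had 90.6, 85.0 and 83.5 TPM with the miR-126 mimic, against 199, 194 and 201 TPM with the miR-150 mimic and 223, 220.5 and 207 TPM with scrambled RNA (log2 fold change -1.19, SE 0.081, limma adjusted p = 7.03e-05), and its gene overlaps TAF10. ITGB3, the beta chain of the vitronectin receptor, differed by 1.36. Of 27 TGF-beta and mesenchymal genes 3 were higher and 3 lower (median 0.18), against the same 15.8% and 3.06%, and after centring 0 were higher and 4 lower. ACTA2, smooth muscle actin, and TAGLN, an actin-binding protein, differed by 0.88 and 0.73, and ACVRL1, a BMP receptor of endothelium, by -0.56. Of 30 genes of actin filament assembly 6 were higher and 2 lower (median 0.08), against 15.8% and 3.06% of all genes. After centring 0 were higher and 3 lower, against 5.89% and 7.53% of all genes. The counts were 3 and 1 without miR-150 mimic replicate 4, where 1379 and 442 of all 13750 genes were higher and lower.

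Of 24 p53 targets 12 were higher and 0 lower, against 15.8% and 3.06% of all genes, with a median of 0.55. The counts were 11 and 0 without miR-150 mimic replicate 4 (median 0.33), 6 and 2 after centring, and 2 and 0 without the replicate block. BTG2, an antiproliferative protein, had 64.8, 65.1 and 64.8 TPM with the miR-126 mimic, against 31.9, 33.2 and 24.6 TPM with the miR-150 mimic and 46.6, 49.2 and 39.995 TPM with scrambled RNA (log2 fold change 1.10, SE 0.094, limma adjusted p = 0.000219). Its miR-126 libraries lay above those of both other groups. TP53INP1, which promotes cell death and autophagy, had 20.6, 19.3 and 16.1 TPM with the miR-126 mimic, against 8.83, 11.7 and 3.64 TPM with the miR-150 mimic and 15.4, 18.4 and 15.1 TPM with scrambled RNA (log2 fold change 1.23, SE 0.22, limma adjusted p = 0.00707), with the miR-150 libraries low. RRM2B, a subunit of ribonucleotide reductase, and FAS, a death receptor whose gene overlaps ACTA2, differed by 1.01 and 0.98.

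Of 25 genes of DNA replication and S phase 9 were higher and 1 lower (median 0.25), against 15.8% and 3.06% of all genes, with 4 and 1 after centring and 1 and 0 without the replicate block. GINS1, part of the replicative helicase, had 51.5, 45.8 and 46.0 TPM with the miR-126 mimic, against 26.5, 28.0 and 18.2 TPM with the miR-150 mimic and 45.7, 43.6 and 44.4 TPM with scrambled RNA (log2 fold change 0.97, SE 0.13, limma adjusted p = 0.00168). TYMS, MCM5 and MCM2, of nucleotide synthesis and the same helicase, differed by 0.73, 0.72 and 0.66. Of 27 genes of G2 and M phase 1 was higher and 1 lower (median -0.06), against 15.8% and 3.06% of all genes. After centring 0 were higher and 10 lower, against 5.89% and 7.53% of all genes. With the length trend removed 0 were higher and 15 lower, where 1375 and 1559 of all 13656 genes were.

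Of 25 genes of glycolysis and the hypoxia response 4 were higher, near the 15.8% of all genes, and 0 lower (median 0.13), which became 2 higher and 3 lower after centring. SLC2A3, a glucose transporter, had 50.3, 66.8 and 50.5 TPM with the miR-126 mimic, against 21.3, 25.3 and 13.1 TPM with the miR-150 mimic and 32.3, 37.0 and 32.5 TPM with scrambled RNA (log2 fold change 1.48, SE 0.15, limma adjusted p = 0.000403), with no overlap between the mimics. Of 25 genes of cholesterol and fatty acid synthesis 2 were higher and 4 lower (median -0.06), against 15.8% and 3.06% of all genes. After centring 1 was higher and 9 lower, against 5.89% and 7.53% of all genes. With the length trend removed 1 was higher and 15 lower, where 1375 and 1559 of all 13656 genes were. Of 24 genes of protein folding and amino acid stress 10 were higher and 3 lower (median 0.30), against 15.8% and 3.06% of all genes, which became 4 higher and 4 lower after centring. Within this list PHGDH, of serine synthesis, and ATF3, a stress transcription factor, differed by 0.77 and 0.88, while SLC7A5 was lower. Of 18 genes of the microRNA machinery 1 was higher and 1 lower, against 15.8% and 3.06% of all genes. They were TNRC6C (0.98) and PABPC1 (-0.46). Of 13 mitochondrially encoded mRNAs limma called 0, with 3 higher at an unadjusted p under 0.05. Their median was 0.36, with 0.05, -0.06 and 0.95 in pairs 2, 3 and 4, and -0.01 without miR-150 mimic replicate 4.

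**Figure D5:**
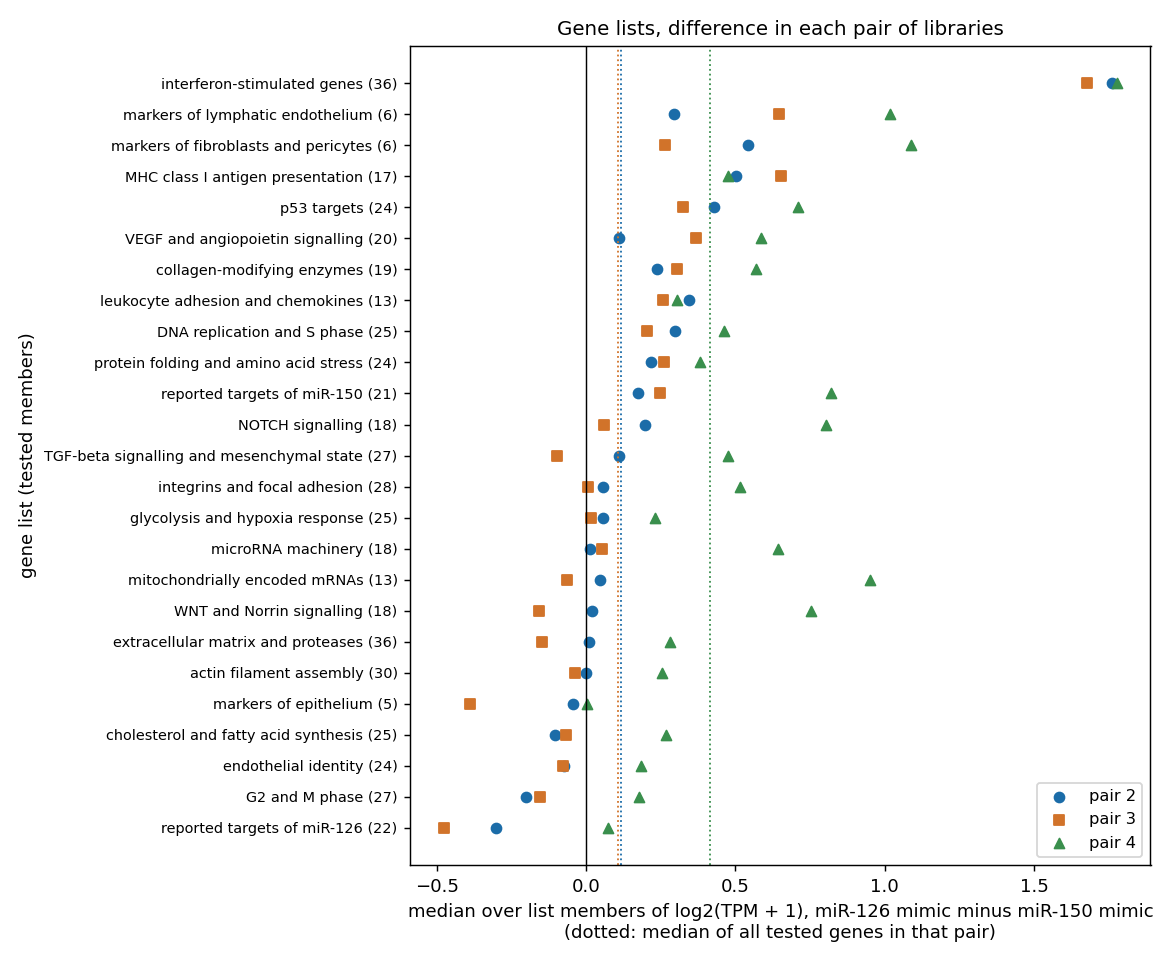
Median difference on the log2(TPM + 1) scale, miR-126 mimic minus miR-150 mimic, of each gene list with at least 5 tested members in the 3 pairs of libraries. The interferon-stimulated genes lie near 1.8 in every pair, and for most other lists pair 4, which holds miR-150 mimic replicate 4, lies to the right of pairs 2 and 3.

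Centring shifted every list, as it took the median of all genes from 0.22 to -0.04. The list median turned to -0.07 for WNT and Norrin genes, -0.25 for endothelial identity, -0.15 for matrix and proteases, -0.08 for integrins and for TGF-beta, -0.01 for S phase, -0.14 for glycolysis, -0.18 for actin and -0.02 for the microRNA machinery. The lists of interferon-stimulated genes, MHC class I, p53 targets and miR-150 targets had medians of 1.56, 0.33, 0.28 and 0.26 after centring. Without miR-150 mimic replicate 4, where the median of all genes was 0.12, the list median was -0.02 for WNT and Norrin genes, -0.03 for endothelial identity, -0.03 for matrix and proteases and -0.01 for actin. It was 0.17 for NOTCH, 0.06 for integrins, 0.04 for TGF-beta and 0.09 for the microRNA machinery.

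Other calls were lost when 1 library was left out, which brought the calls over all genes to between 898 and 2593. A smaller number of libraries and dependence on 1 of them were not told apart. Without replicate 2 or 4 of the miR-126 mimic, ACTA2, LOX, ITGB3 and TNRC6C were not called (adjusted p up to 0.069, 0.0822, 0.0888 and 0.0682). DLL4 and RRM2B were not called without any 1 of the miR-126 libraries (up to 0.164 and 0.102). ADAMTS1, ATF3 and TCF7L1 were not called without replicate 2 or 4 of the miR-126 mimic or replicate 2 of the miR-150 mimic (up to 0.0646, 0.0733 and 0.0914), nor were RPL13AP7 and SOX17 (up to 0.147 and 0.121). NRP1 and TNFAIP3 were called in the fit without miR-150 mimic replicate 3 and in no other fit that left out a library (up to 0.173 and 0.0995). EMCN and FZD6 were not called without miR-126 mimic replicate 4 (0.0595 and 0.0841).

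Markers of other cell types were low or shared with the line. The fibroblast and pericyte markers summed to 54.8 to 57.4 TPM with the miR-126 mimic and 23.8 to 43.7 TPM with the miR-150 mimic. Of 6 tested members 3 were higher and 0 lower, against 15.8% and 3.06% of all genes. After miR-150 mimic replicate 4 was left out 1 was higher, where 1379 of all 13750 genes were. DCN and LUM, defining fibroblast genes, reached at most 0.373 and 0.145 TPM in the 6 libraries. Other members of the list were present, with 5 or 6 members at 1 TPM or more in each of these libraries. Of 5 tested epithelial markers 0 were higher and 2 lower, against 15.8% and 3.06% of all genes. Epithelial markers summed to 529 to 590 TPM with the miR-126 mimic and 905 to 1028 TPM with the miR-150 mimic. Most of this came from KRT18, which overlaps KRT8 and differed by -0.84 (limma adjusted p = 0.00115), while CDH1 reached at most 0.23 TPM. Leukocyte markers summed to 3.28 to 4.54 TPM with the miR-126 mimic and 2.58 to 4.89 TPM with the miR-150 mimic, with CD3E at 0 in 5 of the 6 libraries. Of 6 lymphatic endothelial markers 3 were higher and 1 lower, against 15.8% and 3.06% of all genes, so this list went in both directions. MMRN1, a protein of endothelial storage granules, was among the higher and differed by 1.64 (limma adjusted p = 0.00448). What part these markers have in the other differences was not tested.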

How the data were processed

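RNA was sequenced from 12 libraries, and 6 of them form the comparison. The authors deposited TPM per transcript, made by pseudoalignment to transcripts with kallisto, according to the submitters' processing notes, in which FastQC, sleuth and hg38 (GRCh38) are also named. Tool versions and the transcript set were not given in the sources used here. All libraries share 1 TPM total, so a change in abundant transcripts moves all others, and a bias by transcript length stays in the values. Read totals are lost, so each library's depth is unknown, and errors rest on how far replicate libraries differ.

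The values of 187626 transcripts were added up by gene symbol (36433 symbols, with 171 transcripts without one left out). A tested symbol stood for more than 1 Ensembl gene in 677 cases. Overlapping genes and close copies are uncertain, since the sources used here do not name the use of strand. GENCODE release 29 (GRCh38) gave positions and 3′ UTRs, and 90.6% of the transcripts were in it.

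limma 3.58.1 (R 4.3.3) was fitted to log2(TPM + 1) of all 12 libraries, with group and replicate number as terms and a mean-variance trend. The libraries share the estimates of spread and of the replicate effects. The median residual SD was 0.20. Intervals are 95% and unadjusted. Tested on simulated data for this comparison, with 13750 genes, the fit recovered 74 of 100 genes changed by 1 on the log2 scale and 98 of 100 changed by 2, with 11 false calls. The simulation drew independent normal noise for each gene around the fitted means, with the replicate block built in. It added no library bias shared across genes, such as that with transcript length. Its false calls therefore do not bound those in the real libraries. The libraries were paired by number in advance, although the labels do not say what a number marks. Same-numbered libraries deviated together from their group means across genes (r = 0.29, 0.55 and 0.28 for numbers 2, 3 and 4). Libraries of unlike number gave r from -0.45 to 0.17, the highest for miR-126 number 4 with miR-150 number 2. Number 3 thus stood apart most clearly.

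Genes were named by rules. They were the 12 largest differences in each direction among called genes with the same sign in 3 pairs and at least 5 TPM in the higher mimic, called genes whose 3′ UTR matches the microRNA's seed (bases 2 to 8), up to 4 called members of each of 26 lists, and 16 genes fixed for the microRNAs. The match rule was applied to miR-126 alone, and genes named outside the rules are said to be so or are members that were not called. The members and lists were chosen with earlier results of these data known. Lists are described by counts and medians without a test. Of all tested genes 5.89% were higher and 7.53% lower after centring. The shares were 10.0% and 3.21% without miR-150 mimic replicate 4, and 3.11% and 0.8% without the replicate block. List counts in those settings are to be read beside these shares. Values of 3 items that fall under these rules are not reported here.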

Additional observations from a re-analysis of the deposited data

How the results depend on the processing

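The comparison called 2599 genes (2178 higher, 421 lower). With no replicate block the number was 537 (427 and 110), in the 6 libraries alone 86 (68 and 18), and without miR-150 mimic replicate 4 and with no replicate block 425 (275 and 150). Higher and lower calls were 810 and 1035 after centring, 1062 and 1006 after quantile normalization, and 1375 and 1559 after the trend with transcript length was removed. Leaving out the replicate 4 libraries of the miR-143 and miR-150 mimics, both rich in short transcripts, gave 1767 higher and 688 lower calls. Using only pairs 2 and 3 gave 1243 higher and 492 lower calls. Leaving out 1 library gave 898 to 2593 calls, 724 to 2204 higher and 174 to 442 lower. The fewest calls came without miR-126 mimic replicate 4, with 1085 without its replicate 2, 1487 without its replicate 3 and 1582 without miR-150 mimic replicate 2. The other pseudocount and filters and the fit with no mean-variance trend kept the numbers of called, higher and lower genes within 1.5 times, though a pseudocount of 0.1 gave 548 genes higher by at least 1, against 339. Of 2084 values of 116 named genes, 452 were no longer called, 8 were newly called and 16 turned sign. FZD4 turned to -0.083 after centring, -0.20 with the length trend removed, -0.081 without both short-transcript libraries and -0.087 with only pairs 2 and 3. CXCR4 turned to -0.052 after centring and -0.15 after quantile normalization, and PKM to -0.013 after centring. With 1 library left out FZD4 ran from -0.014 to 0.31, SPRED1 from -0.38 to 0.22, MMP14 from -0.12 to 0.11 and ADAM19 from -0.29 to 0.056. The cause was not tested. The settings that left out pairs or both short-transcript libraries, or combined choices, and the match to bases 2 to 7 were added after the data had been seen. No median could be given for leukocyte markers at the higher filter. The unknown depth limits statements on low genes.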
